A study of Mus musculus with 3 samples.

Results

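The genes described here encode the activin and inhibin subunits (Inhba, Inhbb, Inha), the follistatin group (Fst, Fstl1, Fstl3), the TGF-beta ligands (Tgfb1, Tgfb2, Tgfb3) and the anti-Müllerian hormone receptor (Amhr2). They were chosen by name, and all 10 were present among the 24698 genes of the merged count table, 23473 of which had at least 1 count in the cells used. The cells were Sca1+/cKit- cells sorted from the testes of adult C57BL/6 mice, 8-12 weeks old, plated on Matrigel and profiled by Drop-seq, a droplet method that counts each captured RNA once through its unique molecular identifier (UMI). After recovery for 18 h in 10% serum, the cells were expanded for 3 days with PDGFAA, PDGFBB and FGF2 (10 ng/ml each) and the Smoothened agonist SAG (0.5 µM), all of which stayed in the later medium. The day 4 library came from the expansion stage, and the day 7 and day 14 libraries came from cells moved to differentiation medium, which also held 5 mM LiCl2 and 10 µM DAPT, an inhibitor of the gamma-secretase that releases active Notch. Each day is 1 library, so no difference below has a replicate check, no p-value is given, and every interval covers counting error only. Differences between days and differences between libraries cannot be told apart. The number of mice behind each library is not given in the sources used here, and medium, time in culture and cell composition changed together.

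Activins are dimers of the beta subunits encoded by Inhba and Inhbb, and inhibins pair either beta subunit with the alpha subunit encoded by Inha, so that the alpha subunit turns an activin subunit into its antagonist. Follistatin (Fst) and Fstl3 bind activins in the extracellular space, activins and TGF-betas signal through type I and type II receptor kinases to SMAD2 and SMAD3, and TGF-betas are secreted in a latent form held in the matrix. In the testis, Leydig and Sertoli cells are known to make inhibin subunits and AMHR2, peritubular cells are known to make activin A, and TGF-beta is a known driver of the myofibroblast state.

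The merged table held 2980 cell barcodes for day 4, 2171 for day 7 and 973 for day 14, with 12677110, 11627440 and 5324400 UMIs in total and median depths of 2886.5, 3285 and 3272 UMIs per barcode. Of the 6124 barcodes, 2834 (46.3%) shared their first 11 of 12 bases with another barcode of the same library, whereas 1 such 11-base stem was shared between libraries. Pairs of barcodes with 1 stem fell in the same class of cells in 94.6% of cases, against 53.3% of all pairs of barcodes within a library. A barcode is therefore not shown to be 1 cell: the numbers of barcodes below may exceed the numbers of cells, summed levels per day do not change with it, and shares per barcode stem are given beside the shares per barcode. No barcode was shared between libraries. Levels are counts per 1000000 UMIs (CPM) of the summed barcodes, with exact 95% Poisson intervals. UMI counts were not scaled by gene length, so levels are compared for 1 gene across groups.

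Barcodes were clustered without the member and pathway genes and named from marker lists, most of which the study had drawn from these same libraries. The classes were differentiating myofibroblast-like (2221, 81 and 0 barcodes on days 4, 7 and 14), ECM myofibroblast-like (42, 1287 and 4), proliferating progenitor-like (607, 480 and 15), differentiating Leydig-like (87, 292 and 540), Leydig-like (7, 16 and 412) and an unnamed cluster (16, 15 and 2). The Leydig-like class carried steroidogenic markers, with Cyp11a1, the cholesterol side-chain cleavage enzyme, at 3369 CPM against at most 158 CPM in the other named classes. Insl3, a peptide hormone of Leydig cells, stood at 2548 CPM against at most 307 CPM. Both genes were on the list that named the class, so their levels are no separate check of the name. The name differentiating Leydig-like was not borne out on days 4 and 7, where it rested on cluster 9 (84 and 264 barcodes). On day 7 this cluster held Cyp11a1 at 11.4 CPM, in 5 barcodes, and Star, the cholesterol transporter of steroid synthesis, at 205 CPM, below the 287 and 480 CPM of ECM myofibroblast-like clusters 2 and 5. Cluster 6, which made up the class on day 14, held them at 234 and 544 CPM. In all, 9 groups of a class on a day held at least 50 barcodes and are compared below.

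The clearest reversal in the family was between the activin and inhibin subunits. Inhba, the activin A subunit gene (chr13:16011851-16031621, GRCm38, plus strand), had a level of 941 CPM (924 to 958) in the day 4 library, 781 CPM (765 to 797) in that of day 7 and 134 CPM (124 to 144) in that of day 14. Inha, the inhibin alpha gene (chr1:75507077-75510366, plus strand), was at 0.947 CPM (0.489 to 1.65), 2.84 CPM (1.95 to 3.99) and 45.8 CPM (40.3 to 52.0). The intervals of the 3 days did not overlap for Inhba, and those of day 4 and day 7 did not overlap for Inha either. Inhba was thus 5.85-fold lower on day 14 than on day 7, while Inha was 16.1-fold higher (11.2 to 24.0). With every barcode given equal weight, the log2 ratio of Inha was 2.65 in place of 4.01. Inhbb, the activin B subunit gene (chr1:119415465-119422248, minus strand), followed neither course. Its levels were 22.5 CPM (19.9 to 25.2), 5.25 CPM (4.01 to 6.74) and 9.39 CPM (6.97 to 12.4) in the same order, so its low point was the middle library.

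**Figure D1:**
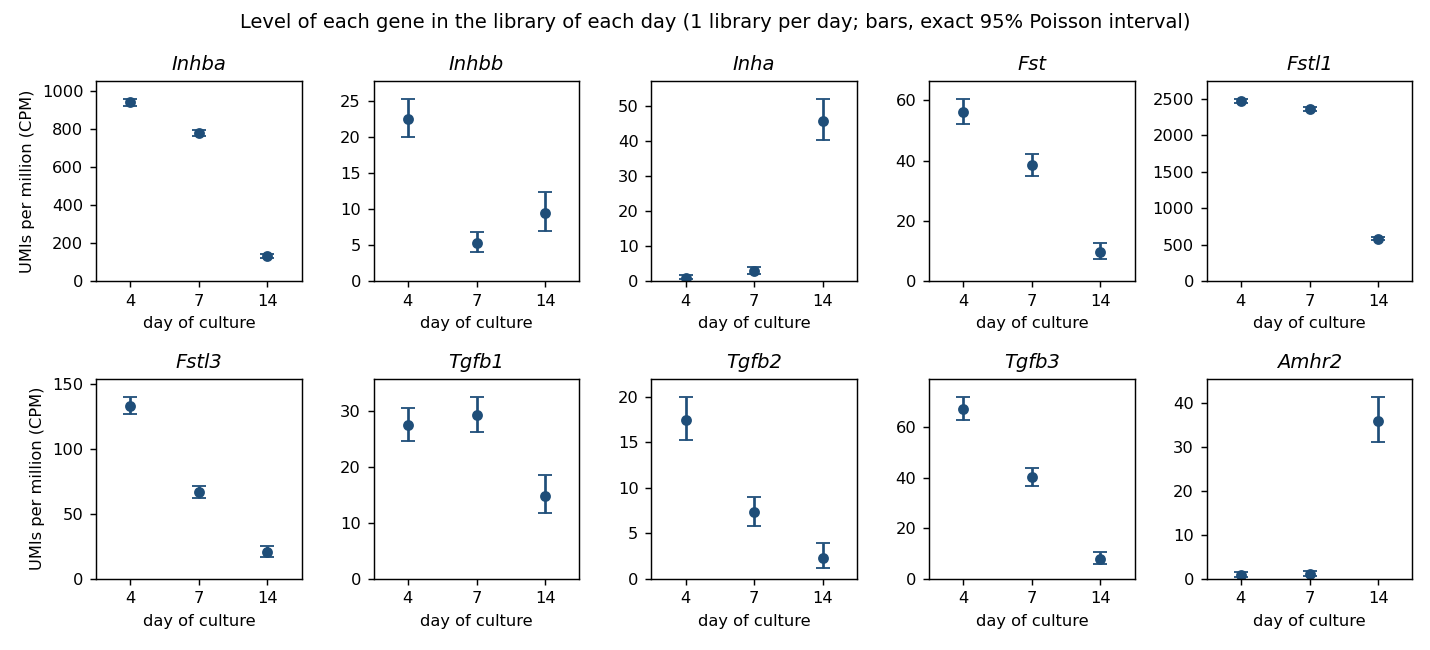
Level of each of the 10 genes in CPM (y axis, from 0) on days 4, 7 and 14 of culture (x axis); each point is 1 library and each bar the exact 95% Poisson interval. Inha and Amhr2 are highest on day 14, whereas Inhba and Fstl1 drop to 134 and 578 CPM there.

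The follistatin group was lower on day 14 than on day 4 in all 3 members. Fst (chr13:114452290-114458951, minus strand), the high-affinity activin antagonist, was at 56.2 CPM (52.1 to 60.4), 38.5 CPM (35.0 to 42.3) and 9.77 CPM (7.29 to 12.8) on days 4, 7 and 14. Fstl3 (chr10:79777272-79782630, plus strand), a second activin-binding protein, was at 133 CPM (127 to 140), 66.7 CPM (62.0 to 71.5) and 20.8 CPM (17.1 to 25.1). These intervals do not overlap between any of the 3 days. Fstl1 (chr16:37776873-37836514, plus strand), a secreted glycoprotein of mesenchymal cells that resembles follistatin, was at 2466 CPM (2439 to 2493), 2361 CPM (2333 to 2389) and 578 CPM (557 to 599). Its days 4 and 7 were close, with a ratio of 0.957, and the drop lay between days 7 and 14.

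The TGF-beta ligands differed from one another. Tgfb1 (chr7:25687002-25705077, plus strand) had overlapping intervals on days 4 and 7, at 27.5 CPM (24.6 to 30.5) and 29.2 CPM (26.2 to 32.5), and a level of 14.8 CPM (11.7 to 18.5) on day 14. Tgfb2 (chr1:186622792-186705989, minus strand) was at 17.5 CPM on 222 UMIs, 7.31 CPM on 85 UMIs and 2.25 CPM on 12 UMIs, and these intervals did not overlap either. Tgfb3 (chr12:86056745-86079041, minus strand) was at 67.4 CPM (63.0 to 72.1), 40.2 CPM (36.6 to 44.0) and 7.89 CPM (5.69 to 10.7). Tgfb2 and Tgfb3 were therefore lower at each later day, while Tgfb1 was lower only on day 14. In GENCODE M21, Fst, Fstl3, Tgfb2 and Tgfb3 each share exon bases with a gene on the opposite strand, and whether the counting used strand is not stated for these files, so reads of such partners could not be separated here.

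Amhr2 (chr15:102445367-102454633, plus strand), the type II receptor for anti-Müllerian hormone, stood at 0.947 CPM (0.489 to 1.65), 1.03 CPM (0.533 to 1.80) and 35.9 CPM (31.0 to 41.3) on the 3 days. The first 2 days rested on 12 UMIs each and could not be told apart, and day 14, with 191 UMIs, was 34.8-fold above day 7 (19.4 to 68.5). Amh, which encodes its ligand, had 0 UMIs on every day, which allows up to 3 UMIs in each library.

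The promoter windows of Amhr2 and Inhba are shown. That of Inha was planned too but was left out, for the reason given below. Amhr2 had the highest day 14 over day 7 ratio of the 10 members, and Inhba had the lowest. RefSeq windows on GRCm38.p6 run from 250 bases before to 50 bases after the start and were available for 8 of the 10 genes. Capitals mark an NR5A1 half-site (letters AAGGTCA, searched on both strands), a sequence read by the nuclear receptor NR5A1 that acts on many steroidogenic genes. The Amhr2 window lies at chr15:102445117-102445416 on the plus strand and the Inhba window at chr13:16011601-16011900 on the plus strand.
Amhr2: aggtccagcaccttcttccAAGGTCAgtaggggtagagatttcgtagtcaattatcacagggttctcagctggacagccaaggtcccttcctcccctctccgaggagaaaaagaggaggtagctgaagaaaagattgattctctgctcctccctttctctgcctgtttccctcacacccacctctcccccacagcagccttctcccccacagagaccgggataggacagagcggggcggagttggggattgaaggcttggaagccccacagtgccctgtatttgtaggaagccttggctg
Inhba: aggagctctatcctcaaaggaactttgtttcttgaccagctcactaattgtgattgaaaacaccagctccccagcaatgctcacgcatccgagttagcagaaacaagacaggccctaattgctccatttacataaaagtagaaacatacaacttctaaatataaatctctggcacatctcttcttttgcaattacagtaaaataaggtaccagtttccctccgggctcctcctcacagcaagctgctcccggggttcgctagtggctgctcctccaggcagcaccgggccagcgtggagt
The half-site of Amhr2 begins 231 bases before the start, and 4.72% of all 32851 promoter windows held these letters on either strand. None of the 8 member windows held the cyclic AMP response element TGACGTCA (1.79% of all windows), the AP-1 site TGACTCA (5.20%) or the SMAD element GTCTAGAC (0.213%). None of the 4 motifs contains another, and a match of letters is a description of the window only. The RefSeq window of Inha starts inside the first coding exon of the longer GENCODE transcript and is not shown. It is among the 8 windows searched, so its lack of these letters says nothing of the sequence before that longer transcript.

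Members were counted against a 2-fold line, among genes with at least 20 UMIs over both sides. More of them passed it from day 7 to day 14 than from day 4 to day 7. The same held for all genes compared. From day 4 to day 7, Inha was past 2-fold higher (3.00-fold, 1.51 to 6.38), as were 5.39% of the 12954 genes compared. That call ended after thinning to 1500 UMIs per barcode, with a log2 ratio of 0.94 on 6 and 4 UMIs in place of 1.58, and at a minimum of 100 UMIs. Inhbb, Tgfb2 and Fstl3 were past 2-fold lower, as were 4.33% of genes. Inhbb was 4.29-fold lower, Tgfb2 2.40-fold lower and Fstl3 at 0.500 of its day 4 level, right at the line. From day 7 to day 14, Inha and Amhr2 were past 2-fold higher, in a comparison where 12.4% of 12656 genes were, and Inhba, Fst, Fstl1, Fstl3, Tgfb2 and Tgfb3 were past 2-fold lower, where 16.6% were. The other 2 members were Tgfb1, at 0.507 of its day 7 level, and Inhbb, at 1.79-fold its day 7 level (1.21 to 2.65). The median log2 ratio of the 10 members was -0.41 for day 7 over day 4, against 0.10 over all genes compared, and -1.69 for day 14 over day 7, against -0.14. The day 7 library enters both comparisons. In sums over a whole library, fewer cells of a type and less RNA per cell cannot be told apart.

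**Figure D2:**
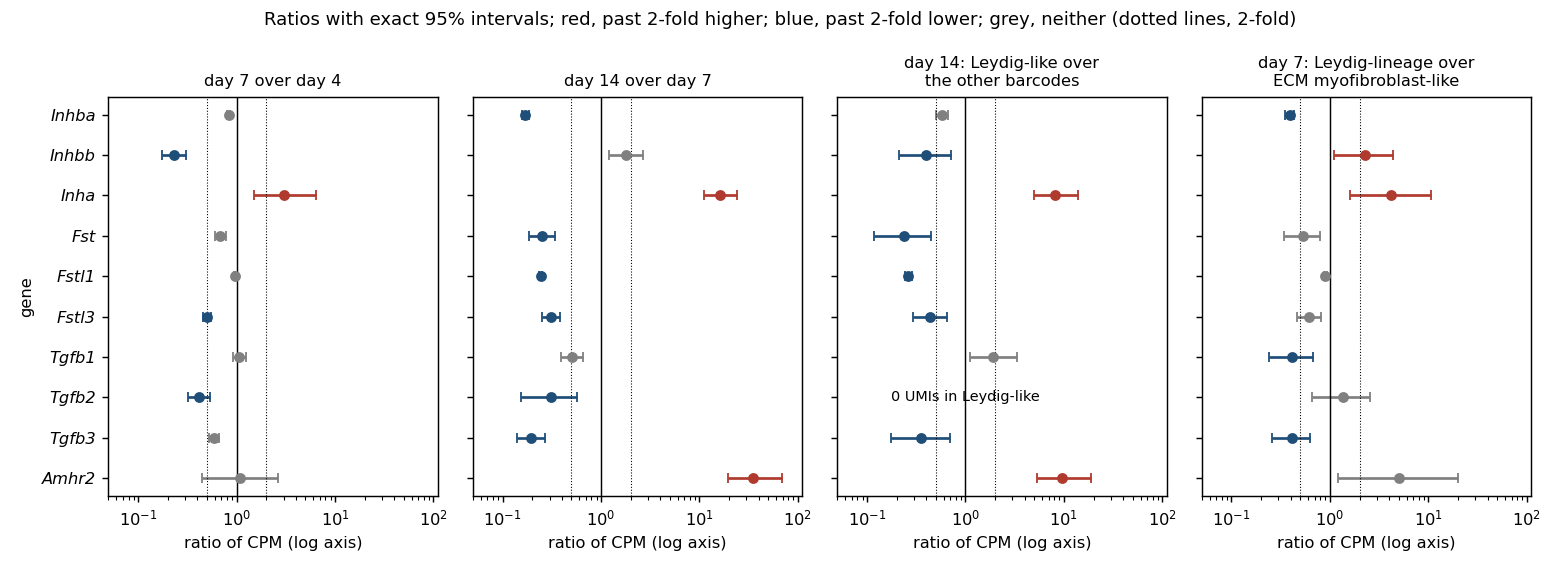
Ratio of CPM (x axis, log scale) for each gene (y axis) in 4 comparisons, with exact 95% intervals; red and blue points lie past the dotted 2-fold lines. Inha is red in all 4 panels, and Amhr2 is red for day 14 over day 7 and for Leydig-like over the other day 14 barcodes.

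By cell class, Inha and Amhr2 were highest in the Leydig-like barcodes of day 14. Inha was at 69.6 CPM (60.9 to 79.3) there, 7.58-fold above the next group, the differentiating Leydig-like barcodes of day 14, at 9.18 CPM (5.44 to 14.5). The remaining 7 groups lay between 0.539 and 7.65 CPM, on 1 to 13 UMIs each, and no 2 neighbours in that order differed beyond their counting intervals. Of the 226 Inha UMIs in the Leydig-like class, 55 came from 1 barcode of 18378 UMIs, which also held 104 Hsd3b1, 70 Cyp11a1, 90 Insl3 and 11 Amhr2 UMIs and none of Sox9 or Wt1. Without that barcode, Inha in the class was at 53.0 CPM. Within day 14, Inha was 8.05-fold higher in Leydig-like than in the other barcodes (4.98 to 13.8), and its log2 ratio was 3.01 with and 2.61 without that barcode. With 10 components in place of 20 in the clustering, 71 Inha UMIs fell outside the Leydig-like class in place of 18, and the log2 ratio was 0.52, short of the line. Whether the barcode with 55 Inha UMIs was then outside the class was not tested.

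Amhr2 was at 55.2 CPM (47.4 to 63.9) in the Leydig-like barcodes of day 14, and no single barcode held more than 11 of its 179 UMIs. The next group, the differentiating Leydig-like barcodes of day 4, rested on 3 UMIs (11.5 CPM, 2.37 to 33.5), and the differentiating Leydig-like barcodes of day 14 were at 6.12 CPM (3.16 to 10.7). Within day 14 the Leydig-like barcodes were 9.56-fold above the others (5.34 to 18.8), a log2 ratio of 3.26 that was 2.10 with 10 components. The remaining groups lay between 0 and 1.75 CPM.

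Detection followed the levels. Inha was seen in 20.9% of Leydig-like barcodes (17.0 to 25.1, Clopper-Pearson) and Amhr2 in 22.8% (18.8 to 27.2), against 3.15% and 2.22% of the differentiating Leydig-like barcodes of day 14 and 0.225% and 0.0900% of the differentiating myofibroblast-like barcodes of day 4. The median depths of these groups were 5604, 2210 and 2853 UMIs. After thinning each barcode to 1500 UMIs, which left out 13 of 412, 161 of 540 and 572 of 2221 barcodes, the Inha shares were 7.77%, 1.32% and 0.0606%, and the Amhr2 shares were 9.77%, 0.792% and 0.121%. Counted over barcode stems, 26.1% of 287 Leydig-like stems held Inha and 27.9% held Amhr2. In the thinned Leydig-like barcodes, 5 of the 31 with Inha also held Amhr2 (16.1%), against 9.24% of those without Inha, on counts too low to call the shares different. Median mitochondrial shares were 2.47% in the Leydig-like and 2.16% in the differentiating Leydig-like barcodes of day 14.

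Inha and Amhr2 are also known in Sertoli cells, so the Sertoli list was read beside them. Of its 6 genes, 5 were in the table, and their summed level in the Leydig-like barcodes of day 14 was 10.8 CPM, against 26.0 CPM in the differentiating Leydig-like barcodes of day 14 and 19.8 to 38.4 CPM in the groups of days 4 and 7. Sox9 gave most of that sum, with 347 of 418, 369 of 419 and 69 of 86 UMIs on the 3 days. Of the other markers, Rhox5 went from 37 and 24 to 0 UMIs. Its day 14 interval in CPM lay below those of days 4 and 7. Dhh had 2, 4 and 0 UMIs and Wt1 had 27, 16 and 6. Scaled to the size of each library, neither differed between days, as their intervals in CPM overlapped on all 3 days. Cldn11 was at 0.394, 0.516 and 2.07 CPM. Its day 14 interval lay above that of day 4 but overlapped that of day 7. Fshr was not analysed here. The adrenal cortex list, with 4 of its 5 genes in the table, summed to 24.7, 20.3 and 174 CPM on the 3 days. That sum was highest on day 14, as were Inha and Amhr2, but it was not split by gene. Cyp21a1 was at 0 on days 4 and 7, and Mc2r at 0 on day 4. The list summed to 225 CPM in the Leydig-like barcodes of day 14, with Mc2r at 0, and to 99.0 CPM in the differentiating Leydig-like barcodes, with Cyp21a1 at 0. The macrophage list of 9 genes summed to 10.6, 25.1 and 232 CPM on the 3 days, with C1qb at 0 on day 14. In the Leydig-like and differentiating Leydig-like barcodes of that day it was at 9.24 and 9.18 CPM, so the high day 14 sum lay in the few barcodes outside both classes. The part of these cell types in the levels of Inha and Amhr2 was not tested.

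**Figure D3:**
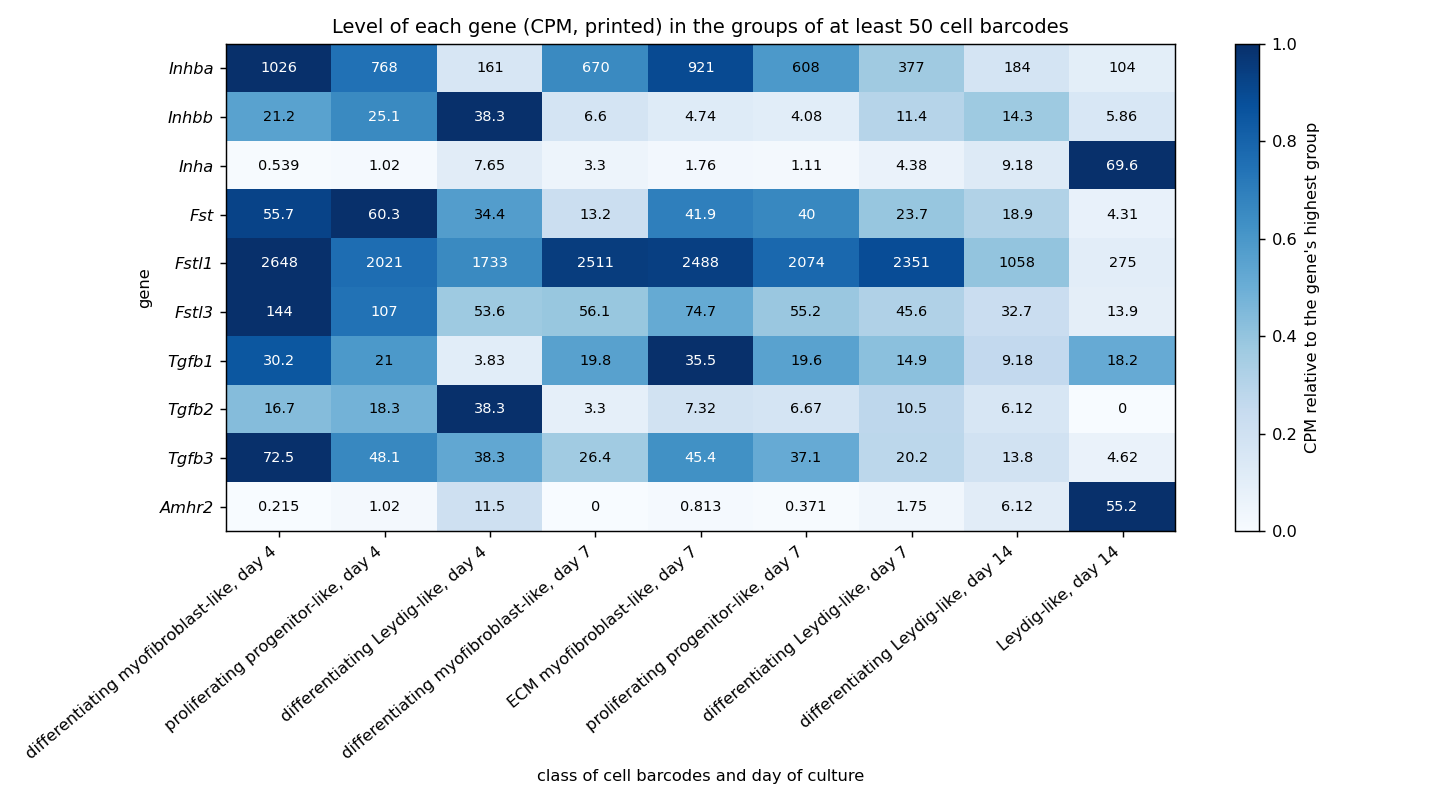
Level of each gene (rows; CPM printed in each cell) in the 9 groups of at least 50 barcodes (columns: class and day), coloured by the share of the gene's highest group. Inha (69.6 CPM) and Amhr2 (55.2 CPM) peak in the Leydig-like barcodes of day 14, and Inhba and Fstl1 are at their lowest there.

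Inhba had the opposite order. It was at 1026 CPM (1006 to 1047) in the differentiating myofibroblast-like barcodes of day 4, at 921 CPM (899 to 943) in the ECM myofibroblast-like barcodes of day 7 and at 768 CPM (737 to 800) in the proliferating progenitor-like barcodes of day 4. These 3 groups differed from each other beyond counting error, but the order did not hold cluster by cluster. Of the differentiating myofibroblast-like clusters of day 4, cluster 1 was at 1265 CPM and clusters 0 and 4 were at 847 and 839 CPM. The ECM myofibroblast-like clusters 2 and 5 of day 7 were at 829 and 944 CPM. The proliferating progenitor-like clusters 3 and 8 of day 4 were at 713 and 857 CPM. The differentiating Leydig-like barcodes of days 4, 7 and 14 were lower, at 161 CPM (116 to 217), 377 CPM (342 to 414) and 184 CPM (165 to 204). The Leydig-like barcodes of day 14 were lowest at 104 CPM (93.1 to 116). On day 7, the Leydig-lineage barcodes (Leydig-like and differentiating Leydig-like together), of which 264 of 308 were cluster 9, held 0.390 of the Inhba level of the ECM myofibroblast-like barcodes (0.353 to 0.430). On day 14, the Leydig-like barcodes held 0.577 of the level of the other barcodes (0.497 to 0.671), which is not past 2-fold. After thinning to 1500 UMIs, an Inhba UMI was found in 13.3% of the Leydig-like barcodes of day 14, in 70.4% of the differentiating myofibroblast-like barcodes of day 4 and in 70.0% of the ECM myofibroblast-like barcodes of day 7. No group here is known to lack Inhba, so the share that free RNA gives was not tested, and these shares are not read as shares of expressing cells. The 1480 thinned day 4 barcodes with Inhba held Fst in 9.53% of cases, against 4.82% of those without. The shares were 5.93% and 3.82% on day 7 and 1.69% and 1.48% on day 14. Within the ECM myofibroblast-like barcodes of day 7 they were 5.73% and 5.41%. In the differentiating myofibroblast-like barcodes of day 4 they were 9.47% and 5.12%. The proliferating progenitor-like barcodes had 8.47% and 5.43% on day 4 and 7.66% and 3.80% on day 7. On day 14 the order was the other way, at 0% and 0.867% in Leydig-like and 1.59% and 2.22% in differentiating Leydig-like barcodes.

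The differentiating Leydig-like barcodes of days 4 and 7 came mostly from cluster 9, led by elastic-fiber genes, and those of day 14 mostly from cluster 6, so the course of that class over days compares different clusters. In cluster 9, Inhba was at 163 CPM on day 4 and 395 CPM on day 7, and cluster 6 was at 180 CPM on day 14. Cluster 9 carried Tcf21, a transcription factor of interstitial progenitors, at 139 CPM on day 4 and 50.3 CPM on day 7, against 29.5 CPM in cluster 6 on day 14.

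Inhbb and Tgfb2 were also lower on day 7 than on day 4 within the proliferating progenitor-like class. In these barcodes, Inhbb was at 25.1 CPM (19.7 to 31.5) on day 4 and 4.08 CPM (2.04 to 7.30) on day 7, a ratio of 0.163 (0.0779 to 0.308). In the differentiating Leydig-like barcodes it was at 38.3 CPM (18.3 to 70.4) on 10 UMIs and 11.4 CPM (6.07 to 19.5) on 13 UMIs. Tgfb2 in the proliferating progenitor-like barcodes was at 18.3 CPM (13.7 to 23.9) on day 4 and 6.67 CPM (3.95 to 10.5) on day 7. The class is clusters 3 and 8, and Inhbb was lower in both, at 27.5 and 4.41 CPM in cluster 3 and at 21.1 and 3.74 CPM in cluster 8. Tgfb2 was lower in cluster 3, at 20.9 and 2.94 CPM, whereas its intervals overlapped in cluster 8, at 14.1 CPM (8.05 to 22.9) and 10.5 CPM (5.72 to 17.6). In the same class, the germ cell list of 7 genes had 1463 UMIs on day 4, with Ddx4 at 0, and 64 UMIs on day 7, with Dazl and Ddx4 at 0. The macrophage list was at 2.03 and 48.2 CPM there. The part of these cell types in the lower Inhbb and Tgfb2 was not tested. Inhba in the same class differed less, at 768 CPM and 608 CPM, a ratio of 0.792 (0.743 to 0.844), and Fstl1 was at 2021 and 2074 CPM, with an interval of the ratio that holds 1.

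On day 14, Inhbb was at 14.3 CPM (9.49 to 20.6) in the differentiating Leydig-like and 5.86 CPM (3.53 to 9.14) in the Leydig-like barcodes. That is the reverse of the order of Inha in the same library. Tgfb2 had 0 UMIs in the Leydig-like barcodes of day 14, which allows up to 3 UMIs there, and 12 UMIs in the differentiating Leydig-like barcodes.

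Against the other day 14 barcodes, the Leydig-like class had Inha and Amhr2 past 2-fold higher, where 4.48% of the 10376 genes compared were, and Inhbb, Fst, Fstl1, Fstl3 and Tgfb3 past 2-fold lower, where 7.76% were. Fst was at 4.31 CPM (2.36 to 7.24) in the Leydig-like barcodes and 18.9 CPM (13.3 to 26.0) in the differentiating Leydig-like barcodes. Fstl1 was at 275 CPM (257 to 294) and 1058 CPM (1013 to 1105), Fstl3 at 13.9 CPM (10.1 to 18.6) and 32.7 CPM (25.1 to 41.7), and Tgfb3 at 4.62 CPM on 15 UMIs and 13.8 CPM on 27 UMIs. Tgfb1 went the other way, at 18.2 CPM (13.8 to 23.5) and 9.18 CPM (5.44 to 14.5), and was 1.89-fold higher in the Leydig-like than in the other barcodes (1.12 to 3.31), short of the line. Of 9 members with enough UMIs, 3 were higher and 6 lower.

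Of the day 7 barcodes called Leydig-lineage, 264 of 308 were cluster 9, where that name was not borne out. The Leydig-lineage barcodes had Inhba, Tgfb1 and Tgfb3 past 2-fold lower than the ECM myofibroblast-like barcodes, where 7.40% of the 11137 genes compared were. Inhbb and Inha were past 2-fold higher, where 7.36% of genes were. The 2 higher genes rested on few counts. Inhbb had 13 against 35 UMIs (2.25-fold, 1.09 to 4.36) and Inha 9 against 13 (4.19-fold, 1.58 to 10.6). Tgfb1 stood at 0.416 (0.243 to 0.670) and Tgfb3 at 0.416 (0.260 to 0.634) of the ECM myofibroblast-like level, Fst at 0.529, and Fstl1 at 0.896. Neither higher call held in every setting. Among barcodes that had 800 or more genes and no more than 5% mitochondrial UMIs, Inhbb was at a log2 ratio of 0.95 in place of 1.17 and Inha had too few UMIs for a call. After thinning, Inhbb was at -0.62 and Inha again had too few. With 30 components, 36 barcodes kept the Leydig-lineage name in place of 308, Inhba was at -2.64 in place of -1.36 and Fstl1 at -1.98 in place of -0.16. Without cluster 9, Fstl1 was at a log2 ratio of -1.47 in place of -0.16, Inhba at -2.79 in place of -1.36, and Fst at 0.38 in place of -0.92, on 9 Fst UMIs.

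Set per Inhba UMI, Inha went from 0.00101 (0.000520 to 0.00176) on day 4 to 0.00364 (0.00250 to 0.00511) on day 7 and 0.343 (0.296 to 0.397) on day 14. Without the 1 barcode rich in Inha, the day 14 ratio was 0.267. In the Leydig-like barcodes of day 14 the ratio was 0.671 (0.564 to 0.796), and in the differentiating Leydig-like barcodes of the same library it was 0.0500 (0.0293 to 0.0802). Per Inhbb UMI, Inha was at 0.0421, 0.541 and 4.88 on the 3 days. Fst per Inhba UMI was at 0.0597 (0.0553 to 0.0644), 0.0494 (0.0448 to 0.0543) and 0.0731 (0.0541 to 0.0970). From day 7 to day 14, Fst was 3.95-fold lower and Inhba 5.85-fold lower, while Inha was higher. These are ratios of counted RNAs and say nothing of protein dimers.

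**Figure D4:**
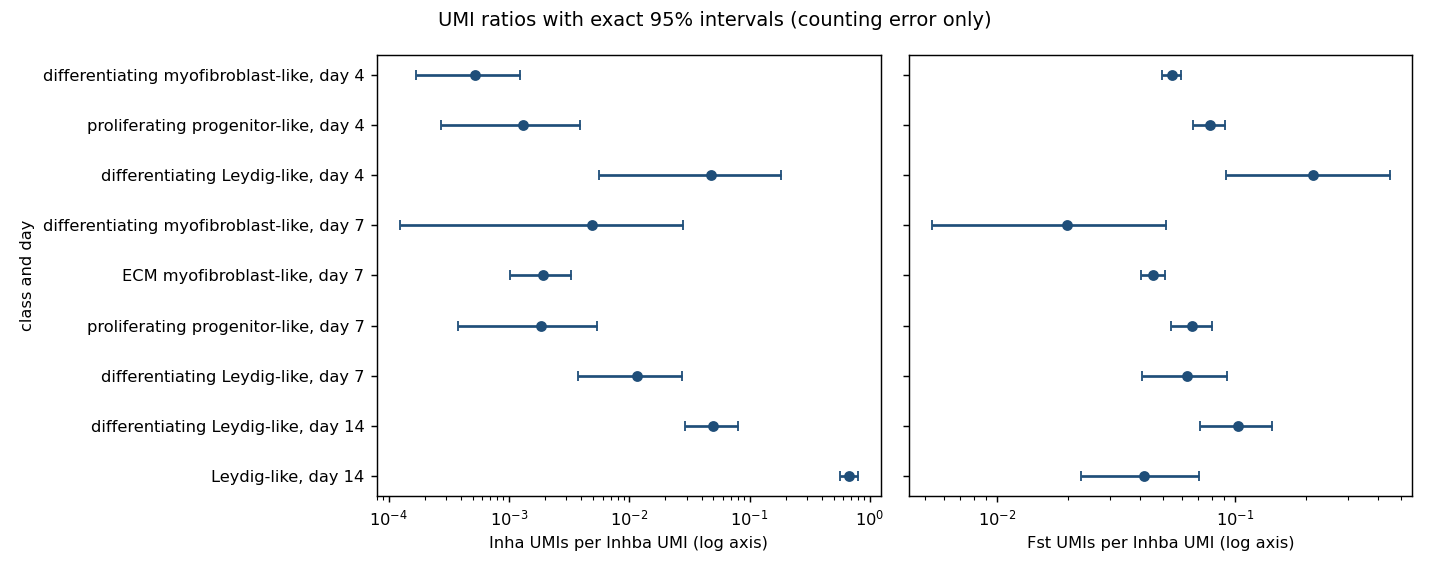
UMIs of Inha (left) and Fst (right) per UMI of Inhba (x axes, log scale) in the 9 groups of a class on a day (y axis), with exact 95% intervals. The Inha ratio reaches 0.671 in the Leydig-like barcodes of day 14, and the Fst ratio lies between 0.0197 and 0.214.

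The genes whose log2(CPM + 1) followed each member most closely over the 9 groups, among 6675 genes with at least 500 UMIs, are given as a description, since the groups share libraries. For Inha these were Zmat5 (Pearson r 0.984), Atp5h (0.981) and Nr5a1 (0.980), the last the steroidogenic nuclear receptor. For Amhr2 they were Sdha (0.973), D10Jhu81e (0.973) and Pank1 (0.966), the first a mitochondrial respiratory enzyme. Outside day 14, no group held more than 13 Inha or 6 Amhr2 UMIs, so low counts limit the r values of both genes. For Inhba they were Hbegf (0.995), Rap1b (0.994) and Riiad1 (0.992), for Fst they were Lrig1 (0.963), Eftud1 (0.950) and Kirrel (0.946), and for Inhbb they were Lgals3bp (0.960), Bicc1 (0.953) and Sparcl1 (0.950). Hbegf is an EGF-family ligand, and it was highest, at 453 CPM, in the same day 4 class as Inhba.

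Of 61 other genes of the pathway lists, 57 were in the table. From day 4 to day 7, 49 had enough UMIs, 3 were past 2-fold higher and 3 past 2-fold lower, near the 5.39% and 4.33% of all genes compared. With median-ratio size factors, 1 was higher and 3 were lower. Postn, the matrix protein periostin, was at 136 and 450 CPM. Also past the line were Gdf11, an activin-like ligand (2.08-fold higher), Fmod, a TGF-beta-binding proteoglycan (2.06-fold higher), Ltbp4, a latent TGF-beta-binding protein (2.14-fold lower), and Smad6, an inhibitory SMAD (3.67-fold lower on 11 and 44 UMIs). The known targets did not move as 1 group here, with 6 of 14 higher and 8 lower and a median log2 ratio of -0.05.

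From day 7 to day 14, 4 pathway genes were past 2-fold higher and 19 past 2-fold lower of 49 with enough UMIs, where 12.4% and 16.6% of all genes compared were, with a median log2 ratio of -0.85 against -0.14. With median-ratio size factors, 7 were higher and 18 lower. Among known targets, 9 of 14 were past 2-fold lower. The smooth muscle genes Tagln (38.4-fold lower, 1117 to 29.1 CPM) and Acta2 (29.2-fold lower) and the NADPH oxidase gene Nox4 (9.94-fold lower on 7 UMIs) were among them. The target Tgfbi, a matrix protein, was 4.58-fold higher. Acta2 and Tagln also mark the myofibroblast classes that were nearly absent from day 14.

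Genes of latency, processing and activation had 4 of 10 past 2-fold lower. Thbs1, thrombospondin 1, an activator of latent TGF-beta, was 51.0-fold lower (38.7 to 68.6), Lrrc32, which tethers latent TGF-beta to the cell surface, 12.1-fold lower, Ltbp1, which stores it in the matrix, 7.82-fold lower, and the integrin subunit Itgav 4.41-fold lower. The proprotein convertase Pcsk6 was the exception, at 5, 3 and 198 UMIs on the 3 days, or 37.2 CPM on day 14. Its ratio over day 7 was 144, with a counting interval of 48.6 to 705. The 182 Pcsk6 UMIs of the Leydig-like class put it at 56.1 CPM, against 8.16 CPM in the differentiating Leydig-like barcodes of day 14, the same order as Inha.

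Among receptors, Tgfbr3, which encodes betaglycan, a co-receptor for TGF-beta and for inhibin, had levels of 43.8, 34.2 and 229 CPM on the 3 days, the last 6.70-fold above day 7 (5.98 to 7.52). Unlike Inha, it was high in both day 14 classes, at 256 CPM (239 to 274) in the Leydig-like and 191 CPM (172 to 211) in the differentiating Leydig-like barcodes. Tgfbr1, the TGF-beta type I receptor, was 2.52-fold lower. Acvr1, a type I receptor that can pair with AMHR2, was at 17.3, 19.7 and 21.8 CPM over the days, yet 2.59-fold higher in Leydig-like than in the other day 14 barcodes (1.63 to 4.29). Of 12 SMAD and inhibitor genes, 5 were past 2-fold lower. Ldlrad4 was 11.4-fold lower, Tgif1 5.08-fold, Pmepa1 4.83-fold and Skil 3.02-fold, and Smurf1 was 2.03-fold lower. Among matrix binding proteins, Dcn, decorin, was 2.62-fold higher.

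**Figure D5:**
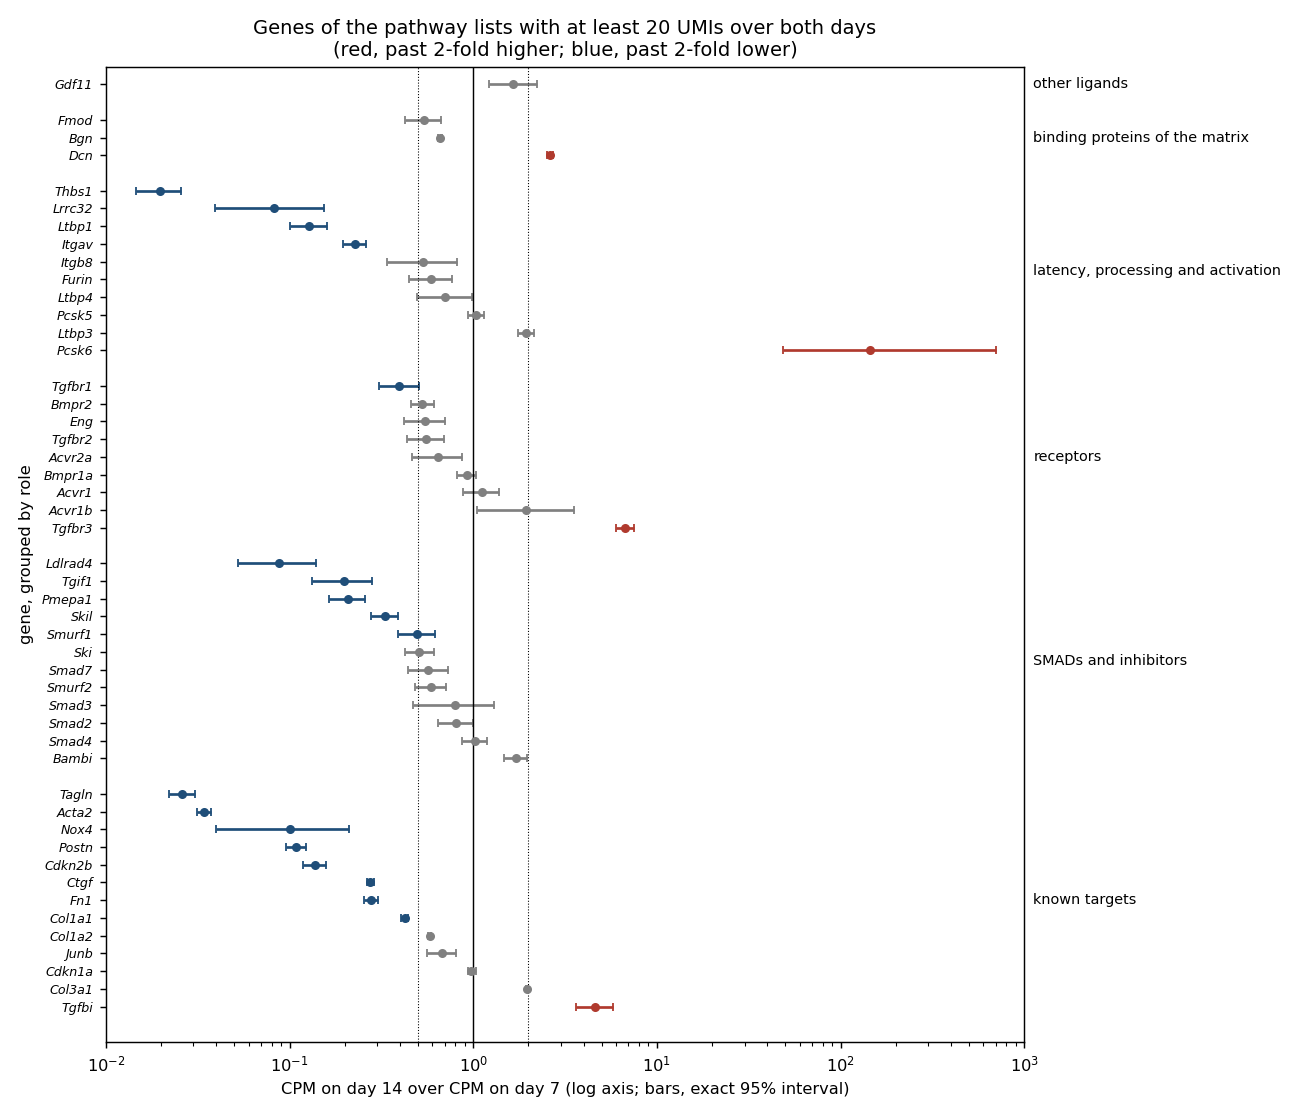
Ratio of CPM on day 14 over day 7 (x axis, log scale) for pathway genes with at least 20 UMIs over both days (y axis, grouped by role), with exact 95% intervals and dotted 2-fold lines. Pcsk6, Tgfbr3, Tgfbi and Dcn lie past 2-fold higher, and Thbs1, Tagln and Acta2 lie furthest to the left of the genes drawn.

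Within day 14, the pathway genes set the Leydig-like class apart mostly by lower levels, with 2 of 46 past 2-fold higher (Pcsk6 and Acvr1), where 4.48% of all genes compared were, and 22 past 2-fold lower, where 7.76% were. Of 13 known targets with enough UMIs, 10 were past 2-fold lower, among them Tagln (2 against 153 UMIs, 119-fold, 32.5 to 995), Acta2 (56.1-fold) and Ctgf (12.0-fold). Thbs1 was 38.2-fold lower on 2 UMIs (10.0 to 325), Itgb8 5.72-fold, Ltbp4 5.62-fold and Ltbp1 5.38-fold lower. Of the 973 barcodes of day 14, only 30 held Tagln, 90 held Acta2 and 28 held Thbs1. Their ratios are therefore ratios of sums over few barcodes and not differences between typical barcodes. Pmepa1 (5.81-fold), Smad3 (2.93-fold) and Skil (2.04-fold) were lower, as were Tgfbr2 (2.46-fold), Acvr1b (2.03-fold, with an interval that holds 1) and all 3 measured matrix binding proteins, Dcn (3.21-fold), Fmod (3.08-fold) and Bgn (2.05-fold).

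The day 7 barcodes called Leydig-lineage were mostly cluster 9, where that name was not borne out. Against the ECM myofibroblast-like barcodes, they had 8 of 47 pathway genes past 2-fold higher and 10 past 2-fold lower. Of all genes compared, 7.36% and 7.40% were. The higher genes were Tgfbi (13.0-fold) and Col3a1 (2.40-fold) among targets, Fmod (5.42-fold) and Dcn (3.52-fold) among binding proteins, Ltbp4 (4.88-fold), the convertase Pcsk5 (3.43-fold) and Itgb8 (3.14-fold) among latency genes, and Tgfbr3 (73.0 against 28.1 CPM). The lower genes included Tagln (3.12-fold), Postn (3.06-fold) and Cdkn2b (2.91-fold), a cell cycle inhibitor. Lrrc32 (3.39-fold), Thbs1 (2.96-fold), Itgav (2.40-fold) and Ltbp1 (2.37-fold) were lower too. Without cluster 9, 18 pathway genes were past 2-fold lower in place of 10.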

How the data were processed

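The members and gene lists were chosen with earlier results of these data known. The authors deposited raw UMI counts per gene and cell barcode, 1 table per day and a merged table of cells that passed their filter; the labels name STAR 2.5.2a, Picard 2.6.0, SAMtools 1.2 and GRCm38, and the paper's methods name another STAR version. The merged counts equalled the counts per day in every entry (0 differed). A further 495 columns of the merged table were not used.

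Counts were summed per day or per class and scaled to CPM, with exact Poisson and exact conditional binomial intervals (95%, scipy 1.17.1). With 1 library per day nothing was tested. Past 2-fold means a CPM ratio of at least 2 in either direction among genes with at least 20 UMIs over both sides, a side at 0 being set to 3 UMIs. Barcodes were clustered with Seurat 5.3.0 in R 4.3.3 (2000 variable genes, 20 components, 20 neighbours, resolution 0.8, 12 clusters). A cluster took the list with the highest median log2 ratio among lists with at least 3 markers raised at least 1.5-fold and seen in at least 10% of its barcodes; the last condition was added after the clusters were seen. Scrublet (scanpy 1.11.5) called under 0.5% of barcodes and was not relied on. Instead, the top 6% of scores were left out in an alternative. Shares of barcodes were also computed after thinning to 1500 UMIs. Call rules were tested on simulated counts. Named genes were all members, up to 4 pathway genes of each role with the largest ratios past 2-fold, and the 3 genes most like 5 members; a few others past the line were named after their values were seen. Barcodes sharing 11 bases were summed in an alternative chosen after seeing the data. Protein sequences were not used here. The counts of pathway genes include 1 gene whose values are not reported here.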

Additional observations from a re-analysis of the deposited data

Results flagged for a closer look

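The comparisons used the barcodes of the merged table, and 876 further barcodes in the tables per day held member UMIs above the 3 that a count of 0 allows. There were 512 UMIs of the 10 genes in 320 such barcodes of day 4, 356 in 229 barcodes of day 7 and 83 in 327 barcodes of day 14. Their summed levels were 3184, 2974 and 670 CPM, against 3733, 3332 and 858 in the barcodes used. Their median depths were 569, 580 and 319 UMIs.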

How the results depend on the processing

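Of 122 recomputed counts, ratios and class levels, 113 stayed within 1.5 times the main count or within the main interval. After thinning to 1500 UMIs, 2 members were past 2-fold in place of 4 for day 7 over day 4, and 4 in place of 7 for day 14 Leydig-like barcodes, a count also given by a minimum of 100 UMIs. That minimum left 15 pathway genes in place of 24 there and 3 members in place of 5 for the day 7 Leydig-lineage barcodes, and at least 800 genes with at most 5% mitochondrial UMIs also gave 3. The day 14 ratio of Inha to Inhbb was 6.86 after thinning in place of 4.88, on 7 Inhbb UMIs. Without the 1 barcode with 55 Inha UMIs, an alternative chosen after seeing the data, the day 14 ratio of Inha to Inhba was 0.267 in place of 0.343 and Inha in the Leydig-like class 53.0 in place of 69.6 CPM. Of 413 recomputed log2 ratios of single members, 371 stayed within the main interval, 41 left it and 1 past the line reversed. Only members past the line could be counted as reversed, so other changes of sign are not in that count. The reversed ratio was Inhbb for day 7 Leydig-lineage over ECM myofibroblast-like barcodes, at -0.62 after thinning, on 1 and 7 UMIs, in place of 1.17. With 10 components, the Inha log2 ratio of Leydig-like over other day 14 barcodes was 0.52 in place of 3.01. The Leydig-like class then held 173 Inha UMIs in place of 226 and 168 Amhr2 UMIs in place of 179. The barcode with 55 Inha UMIs held 11 Amhr2 UMIs, and whether it left the class was not tested. Summing barcodes that share 11 bases before clustering gave 7 and 5 members past 2-fold in the class comparisons, as before. Median-ratio size factors shifted all log2 ratios by 0.11 for day 14 over day 7 and -0.06 for day 7 over day 4. No paired analysis was possible because each day has 1 library. Depth limits Inha and Amhr2 on days 4 and 7 (12 to 33 UMIs).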
